A study of Mus musculus with 6 samples.

Results

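MicroRNA-126 (miR-126) is the miRNA of blood vessel lining, and its hairpin gives a mature strand from each arm, miR-126-3p and miR-126-5p. Both strands were followed by RT-PCR in right lungs of mice that were 7 days old. The wells were chosen by assay name alone (miR-126, with or without an arm suffix), which gave 2 wells of 768, C13 for mmu-miR-126-3p and C14 for mmu-miR-126-5p, side by side on the first of 2 cards of 384 wells. Mice under 12 hours old were kept for 7 days in 95% oxygen (hyperoxia, 3 samples) or in room air (3 samples). The dams were exchanged between both atmospheres every 24 hours. The right lung was taken after the pulmonary artery had been flushed with buffer, which clears much of the blood. The labels give no strain, sex or litter and do not say that the 3 samples of a group came from separate animals, so p-values measure only sample-to-sample spread, part of which may be technical. Whole lung was measured, so fewer endothelial cells and less miR-126 per cell cannot be told apart.

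The threshold cycle (Ct) is the PCR cycle at which a well's signal crosses a threshold. The earlier the Ct, the more RNA was present, with 1 cycle equal to a doubling at full efficiency. The first card detected 307 to 319 of its 375 miRNA assays per sample at a Ct under 35. Room air 1 and hyperoxia 2 shared 308 of 309 amplified values on the second card, which were left out; the miR-126 wells lie on the first card and are not among them. Over the 282 first-card miRNAs detected in all samples the mean Ct was 22.4 ± 0.30 in room air and 23.1 ± 0.45 with oxygen (SD, n = 3 each), a delay of 0.76 cycles (exact permutation p = 0.1, the smallest that 3 against 3 samples allow). What is taken as the reference therefore sets much of any single miRNA's change.

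As background, miR-126 lies in an intron of Egfl7, a gene of endothelial cells that encodes a secreted vessel protein, and is made together with it. The 3p strand lowers Spred1 and Pik3r2, which restrain VEGF signalling, and Vcam1, an adhesion molecule for leukocytes. The 5p strand, once regarded as a passenger, lowers Dlk1, an inhibitor of Notch signalling, and so favours endothelial growth. Platelets and blood stem cells carry miR-126 as well. mRNA was not measured, so none of these targets could be read.

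The sequence below is shown because the seed (bases 2 to 8, in capitals) sets which mRNAs the 3p strand can bind. In RefSeq (GRCm38.p6) the mature strand lies on the plus strand at chr2:26591402-26591423, inside the Mir126a hairpin at chr2:26591357-26591429, and the hairpin lies within Egfl7 at chr2:26581083-26592682.
miR-126a-3p: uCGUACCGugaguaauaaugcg
Mir126a hairpin, with that strand in capitals: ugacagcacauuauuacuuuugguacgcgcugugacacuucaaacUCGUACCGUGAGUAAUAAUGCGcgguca
Of the 1679 mature miRNA names in the RefSeq table, 0 others have the seed CGUACCG, so miR-126-3p has no seed family there. Another hairpin, Mir126b, is annotated on the minus strand of the same place, at chr2:26591363-26591420, with all 58 of its bases inside Mir126a. Its strand miR-126b-5p is the reverse complement of miR-126a-3p over 19 bases and carries another seed. It is not the 5p strand of Mir126a. RefSeq as used here lists no mature sequence for that strand, so none is shown for miR-126-5p.
miR-126b-5p: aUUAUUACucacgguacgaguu

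miR-126-3p was the earliest miRNA of the card. Room air 1 to 3 read a Ct of 11.30, 11.38 and 12.70, and hyperoxia 1 to 3 read 13.57, 12.69 and 13.24. It came first among the 282 miRNAs in 5 of 6 samples, and second in hyperoxia 1, after an assay named for rat miR-347 (rno-miR-347) at 13.51. That miR-347 well varied widely between samples, with a difference of hyperoxia from room air of 5.89 ± 4.38 log2 units (SE). By mean Ct miR-126-3p stood at place 1 in both groups, ahead of miR-24, a miRNA of many cell types, at place 2. In room air the mean Ct was 11.8 ± 0.79 (SD, n = 3) for miR-126-3p and 13.1 ± 0.43 for miR-24. In hyperoxia it was 13.2 ± 0.44 against 13.6 ± 0.31, means that differ by less than an SD of miR-126-3p. At place 3 in room air was miR-30c at 13.5 ± 0.60. Assays differ in efficiency, so a place in this order is one of Ct and not of molecules.

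miR-126-5p was also among the early assays. Room air 1 to 3 read a Ct of 14.79, 14.98 and 15.31 for it, and hyperoxia 1 to 3 read 16.32, 15.63 and 15.83. The strand stood at place 10 in room air and 9 in hyperoxia, and within the first 12 of 282 in all 6 samples. Its nearest assays in room air were miR-211 (14.4 ± 0.55) and miR-26a (14.95 ± 0.26) before it, and miR-218 (15.1 ± 0.65) and miR-484 (15.4 ± 0.80) after it (SD, n = 3 each). The differences from miR-26a and miR-218 were smaller than their spread. In hyperoxia the same assays stood at places 3, 24, 13 and 16, so miR-26a came after miR-126-5p in that order.

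**Figure D1:**
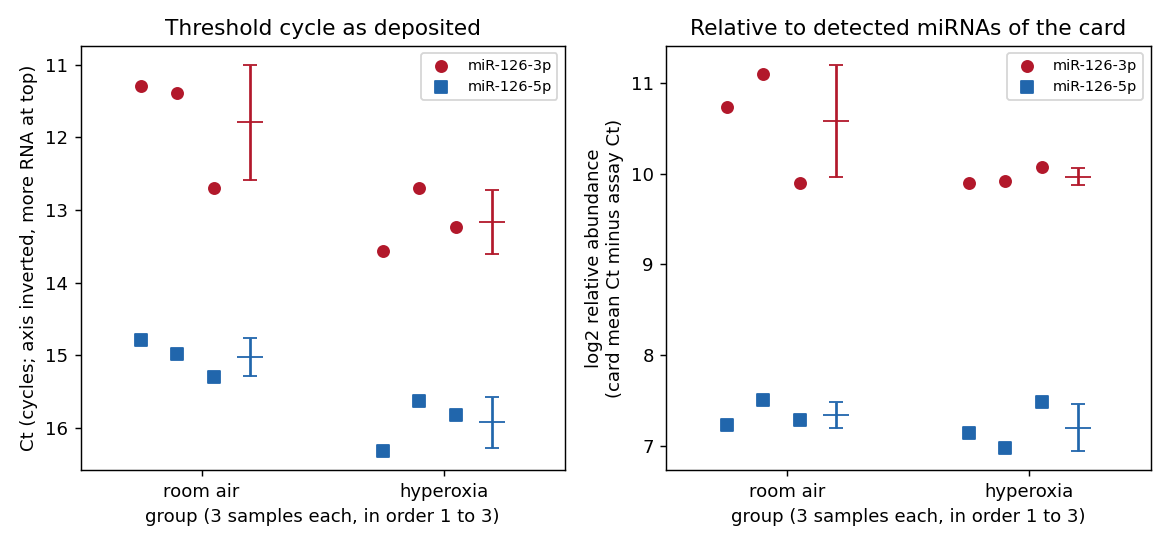
Left, threshold cycle of miR-126-3p (circles) and miR-126-5p (squares) in each sample, with the axis inverted; right, the same samples as log2 relative abundance, the mean Ct of the card's detected miRNAs minus the assay's Ct. Bars beside the points are mean ± SD of 3 samples; room air 3 lies at 9.90 for miR-126-3p, level with the hyperoxia samples, while the 5p values of both groups interleave.

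Hyperoxia was compared with room air to see whether either strand changed with 7 days of oxygen. On the log2 scale, relative to the mean of the card's detected miRNAs, the room air samples had 10.73, 11.10 and 9.90 of miR-126-3p and the hyperoxia samples 9.90, 9.92 and 10.07. The 3 hyperoxia samples lay close together (SD 0.094), whereas room air had 2 high samples and 1 sample, room air 3, at the level of hyperoxia. The difference was a log2 fold change of -0.61 ± 0.37 (SE), or 0.65-fold, with a 95% interval from -1.53 to 0.30. It did not pass (limma adjusted p = 0.689, exact permutation p = 0.4).

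For miR-126-5p the room air samples had 7.24, 7.50 and 7.29 on the same scale and the hyperoxia samples 7.15, 6.98 and 7.48. The groups interleaved, with hyperoxia 3 next to the highest room air sample. Its log2 fold change was -0.14 ± 0.25 (SE), or 0.91-fold, with a 95% interval from -0.76 to 0.48 (limma adjusted p = 0.874, exact permutation p = 0.4). A fall of the size estimated for miR-126-3p thus lies inside the interval for miR-126-5p.

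The groups overlapped for both strands. Among 282 miRNAs of the card, 16.3% had every hyperoxia sample below every room air sample, and 5.67% the reverse. Of 551 assays tested by limma on both cards, 0 (0%) passed the adjusted threshold of 0.05 and 50 (9.07%) had an unadjusted p under 0.05; the first card tested alone gave 1 call, and neither strand was it.

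Room air 3 decided much of the value for miR-126-3p. Its relative abundance lay 1.02 log2 units below the mean of room air 1 and 2 (a deviation of -1.02), and 31 of 282 assays were at least as low in that sample. For miR-126-5p the deviation was -0.08, at or under which 124 of 282 assays lay. Without room air 3, miR-126-3p was at -0.96 ± 0.23 (limma adjusted p = 0.143); without room air 2 it was at -0.35 ± 0.34. The 5p value ran from -0.31 without hyperoxia 3 to -0.02 without hyperoxia 2, and was -0.06 without room air 2. Pooled over the groups, the SD between samples was 0.44 for miR-126-3p and 0.21 for miR-126-5p, against a median of 0.42 over the card, so that 143 and 39 of 282 assays had a smaller spread.

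The reference moved both strands together. As raw Ct, miR-126-3p was 1.37 cycles later in hyperoxia and miR-126-5p 0.90 cycles later. Room air 3 (12.70) was just later than hyperoxia 2 (12.69) for the 3p strand, whereas the 5p groups did not overlap (exact permutation p = 0.1). Without a reference 46.5% of the card's assays had such groups with hyperoxia lower.

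The authors' deposited table gives a fold of 0.521 for miR-126-3p and 0.723 for miR-126-5p. Computed here per sample against the U6 wells in row A, the reference that gives those folds, the log2 level of miR-126-3p was -1.93, -1.40 and -2.44 for room air and -3.24, -2.49 and -2.86 for hyperoxia. That of miR-126-5p was -5.43, -4.995 and -5.05 for room air and -5.996, -5.43 and -5.45 for hyperoxia. The groups did not overlap for either strand, by a margin of 0.048 for 3p and 0.003 for 5p (exact permutation p = 0.1 each), and 27% of the card's assays had groups apart in that direction under the same reference. U6 is a spliceosomal RNA, and its wells disagreed. In row A it was 0.43 cycles later in hyperoxia and in row B 1.06 cycles later. Room air 1 and 3 had the same U6 value in both rows and the other 4 samples did not. Against row B, miR-126-3p was at -0.31 and miR-126-5p at 0.16.

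Over 11 references, miR-126-3p was below 0 in 11 and miR-126-5p in 10, with ranges from -1.50 to -0.31 and from -1.03 to 0.16. The lowest values came with U87, a small nucleolar RNA, under which the groups of both strands stood apart (exact permutation p = 0.1), as did those of 57.1% of the assays with hyperoxia lower. Relative to the card mean with no Ct ceiling, so that wells listed at 40 entered as values, the differences were -0.98 and -0.51. A quantity that subtracting any such reference leaves as it is, is the distance from the median change of the card. miR-126-3p lay at -0.47 log2 units from that median and miR-126-5p at 0.01. Of 282 assays, 59 (20.9%) had a more negative difference than miR-126-3p, and 142 (50.4%) a more negative one than miR-126-5p, which thus sat at the middle of the card.

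**Figure D2:**
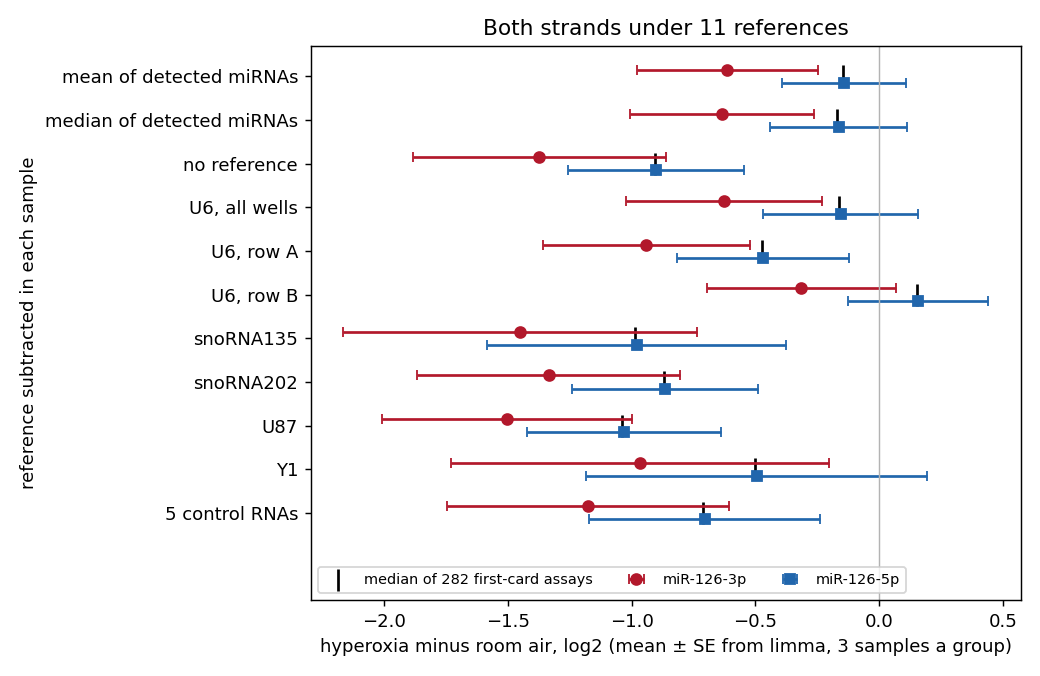
Difference of hyperoxia from room air (x axis, log2, limma mean ± SE, 3 samples a group) for miR-126-3p (circles) and miR-126-5p (squares) under 11 references (y axis); black ticks are the median of 282 first-card assays. Both strands move with the tick, miR-126-5p on it and miR-126-3p at a fixed distance of -0.47 from it.

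The 2 strands come from 1 hairpin and were read on 1 card, so their gap (Ct of 5p minus Ct of 3p) needs no reference. Room air 1 to 3 had gaps of 3.50, 3.60 and 2.61 cycles, and hyperoxia 1 to 3 of 2.75, 2.94 and 2.59 cycles. miR-126-3p was the earlier strand in every sample, room air 1 and 2 had the widest gaps, and room air 3 had nearly the narrowest. The mean gap was 3.23 ± 0.55 cycles in room air and 2.76 ± 0.17 cycles with oxygen (SD, n = 3 each). It changed by -0.47 ± 0.34 cycles (SE), with a 95% interval from -1.34 to 0.40, and did not pass (limma over pairs, adjusted p = 0.597; exact permutation p = 0.3). An unequal change of the strands was therefore not shown, and equal change was not shown either. Without room air 3 the change was -0.79 ± 0.23 (limma adjusted p = 0.178), without room air 2 it was -0.29 ± 0.39, and over all samples left out in turn it kept its sign.

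The same gap was computed for every hairpin with a 3p and a 5p assay on the card, 36 in all, of which 25 could be tested. Of the 25, 0 (0%) passed and 1 had an unadjusted p under 0.05. Their median change was -0.30 cycles, with 16 negative and 9 positive. The change of miR-126 was the 13th by size, which is the middle, at the median size of 0.47. The largest changes were those of miR-331 (-8.59 ± 6.93) and miR-324 (4.36 ± 3.00), both with a wide spread. The miR-331 gap rested on 2 hyperoxia samples. Both miR-331 wells and that of miR-324-5p lie in plate row G, which was left out in an alternative. The smallest were those of miR-345 (0.028 ± 0.25) and miR-434 (-0.07 ± 0.22), whose signs turned when single samples were left out. Of 20 pairs detected in all samples, 10% had gaps that did not overlap and were lower in hyperoxia, and miR-126 was not among them. The gap is signed here. Where the 5p assay is the earlier one, a lower gap means strands further apart, so this share does not count narrowing. The 3p assay was the earlier one in all 6 samples for 6 of the 20 and the 5p assay for 11, and 6 pairs had a smaller spread than miR-126 (SD 0.41, median 0.55).

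**Figure D3:**
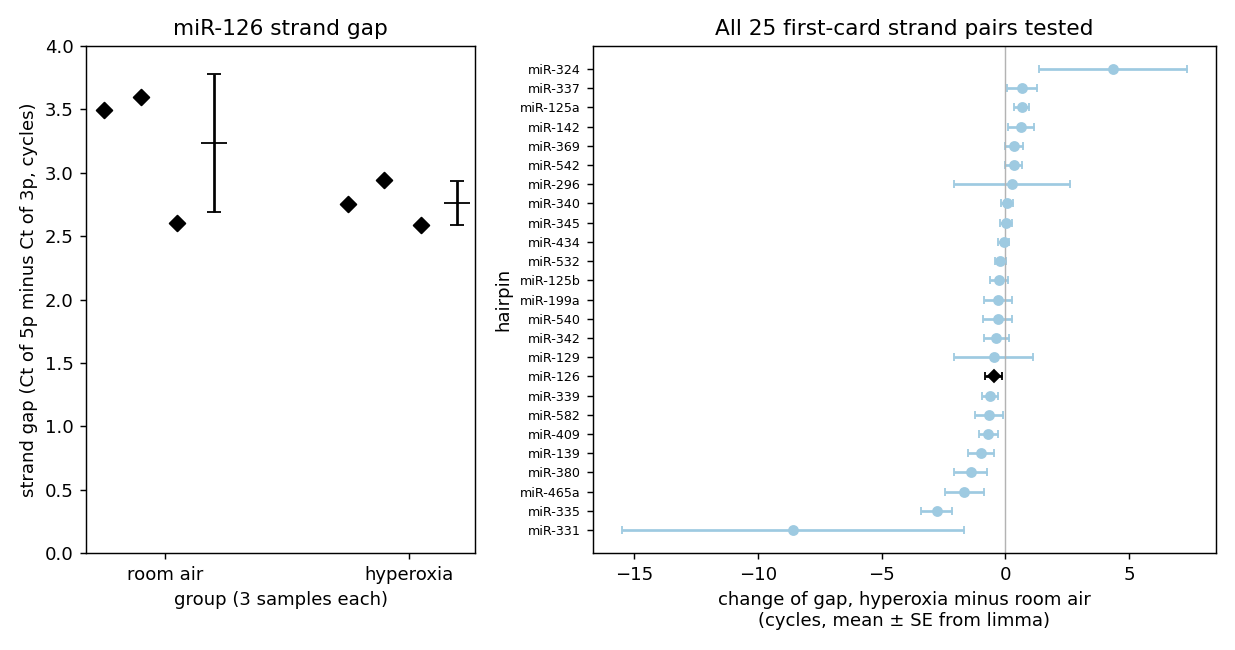
Left, the gap between the miR-126 strands in each sample (cycles), with mean ± SD of 3 samples beside the points; right, change of the gap, hyperoxia minus room air (cycles, limma mean ± SE), for the 25 strand pairs tested on the first card, miR-126 in black. Room air 3 (2.61) lies among the hyperoxia samples (2.59 to 2.94), and miR-126 lies amid the other pairs.

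The profiles of the strands over the samples were then compared. Likeness was measured as the root mean square difference over the 6 samples between the log2 relative abundances of assays, each centred on its own mean, so that a small value means alike in shape and size. Between the strands it was 0.41. By this measure miR-126-5p was the 52nd of 281 assays in likeness to miR-126-3p, whose median over all assays was 0.62. Seen from miR-126-5p, the 3p strand was the 116th of 281, with a median of 0.46. With single samples left out these places ran from 43 to 68 and from 90 to 135.

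Most like miR-126-3p were miR-140, a miRNA of cartilage and mesenchyme (0.14), miR-16, a widely expressed cell cycle repressor (0.15), and miR-582-3p (0.16). All 3 shared with it a level in room air 1 and 2 above the other 4 samples. miR-16, for example, had 8.41 and 8.31 in room air 1 and 2, and 7.35 in room air 3, with hyperoxia at 7.31, 7.34 and 7.33. Their log2 fold changes were -0.51 ± 0.28 for miR-140, -0.70 ± 0.35 for miR-16 and -0.71 ± 0.43 for miR-582-3p, of which 0 passed limma over all assays and 0 had an unadjusted p under 0.05. Like miR-126-3p itself, each was most negative without room air 3, at -0.73, -1.04 and -1.13. Most like miR-126-5p were miR-345-5p (0.12), miR-128a (0.12) and miR-141, an epithelial miRNA (0.12). These were nearly flat, with log2 fold changes of -0.03, -0.04 and -0.03, and the sign of each turned without hyperoxia 2 and without plate row G. The 3 assays beside each strand were picked by likeness over these same 6 samples. Their shared pattern, similar fold change and like response to a left-out sample follow from that choice and are no separate support. All values of a sample share its card and its reference.

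**Figure D4:**
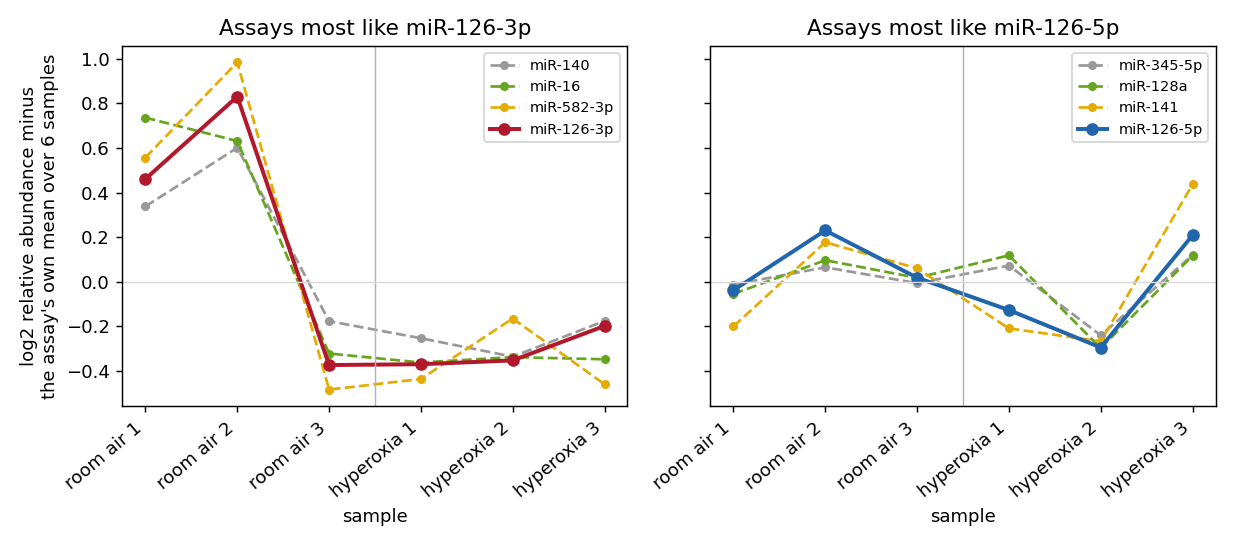
Log2 relative abundance minus the assay's own mean (y axis) in each of the 6 samples (x axis) for miR-126-3p with its 3 most alike assays (left) and for miR-126-5p with its 3 (right); lines only join the values of an assay, and samples of a group have no order. On the left room air 1 and 2 stand above the other 4 samples, and on the right no group stands apart.

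A list of 17 miRNAs known from endothelium and vessel growth was also read, which gave 18 tested assays, both miR-126 strands included. It includes miRNAs of many cell types, such as miR-24, so in whole lung it does not measure endothelial identity. Of these, 8 were positive and 10 negative in hyperoxia, with a median log2 fold change of -0.12, against 232 positive and 319 negative and the same median of -0.12 over all 551 assays. By limma 0 passed over all assays, and 2 of 18 had an unadjusted p under 0.05, against 9.07% of all. The split moved with the reference, to 14 negative against the 5 control RNAs and 15 without a reference. Of the 17 first-card members, 3 had groups that stood apart with hyperoxia higher and 1 with hyperoxia lower, beside 5.67% and 16.3% of the card. The list's mean level ran from 4.06 to 4.21 in room air and from 4.08 to 4.57 in hyperoxia.

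The other members of the endothelial list lay on both sides of miR-126. miR-221, which restrains endothelial migration, had log2 levels of 2.49, 2.52 and 3.16 in room air and of 4.21, 4.19 and 3.68 with oxygen, all 3 hyperoxia samples above room air (1.30 ± 0.31, limma adjusted p = 0.333). Without a reference the miR-221 groups overlapped and the difference was 0.54 ± 0.43. Its transcript partner miR-222 had levels of 5.31, 5.22 and 4.42 in room air and of 5.62, 5.81 and 5.70 with oxygen (0.72 ± 0.32, adjusted p = 0.610, and -0.04 without a reference). miR-132, which promotes vessel growth, was at 1.68 ± 0.56 (limma adjusted p = 0.456). The values of miR-221 and miR-132 were positive in all 21 alternatives run on them.

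miR-218, made from introns of Slit2 and Slit3, was at -0.68 ± 0.39, and miR-92a, which restrains vessel growth, at -0.43 ± 0.32 with groups that did not overlap, as in 16.3% of the card; without hyperoxia 3 it was at -0.19. The Hox cluster miRNAs miR-10a and miR-10b were at -0.15 ± 0.24 and -0.74 ± 0.31; a further miR-10b assay, read on the second card in 2 samples per group, was at -0.31 ± 0.60. The miRNAs of the miR-23, miR-24 and miR-27 clusters lay between -0.35 ± 0.45 for miR-27b and 1.08 ± 0.91 for miR-23a. With 1 sample left out miR-27b ran from -0.78 (without hyperoxia 1) to -0.08 (without hyperoxia 3), and miR-23a was 0.08 without hyperoxia 1. In between were miR-23b at 0.16, miR-24 at 0.25 and miR-27a at 0.25, each of them negative against the control RNAs or without a reference. miR-130a was at -0.09, the low-oxygen marker miR-210 at -0.26 and miR-296-5p at 0.36 (negative against the control RNAs). Leaving out single samples put these at -0.20 to -0.003, -0.48 to -0.06 and 0.024 to 0.83, and miR-130a was nearest 0 without room air 3, the other two without hyperoxia 1. None of these passed limma over all assays.

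**Figure D5:**
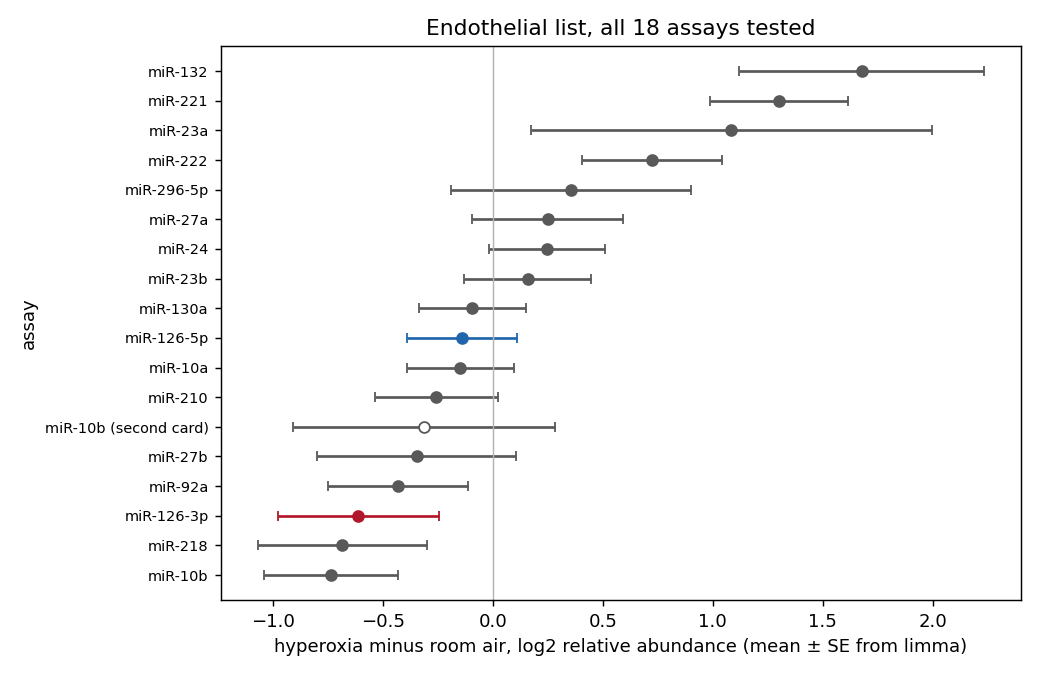
Log2 fold change of hyperoxia over room air (x axis, limma mean ± SE) for the 18 tested assays of the endothelial list (y axis), sorted; miR-126-3p in red, miR-126-5p in blue, the open circle is a second-card assay with 2 samples per group. The members run from -0.74 for miR-10b to 1.68 for miR-132, with miR-126-3p near the lower end.

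Markers of other lung cells were read beside miR-126, and their part in its values was not tested. The epithelial list had a median log2 fold change of -0.03 over 13 assays, 5 positive and 8 negative. The smooth muscle and mesenchymal list was at 0.20 over 11 assays (6 and 5) and the leukocyte list at 0.60 over 11 (7 and 4). The former also holds miR-21 (1.61 ± 0.33), miR-100 (-0.40 ± 0.29) and miR-125b-5p (0.20 ± 0.24). These were not among the cell type markers planned for it. In the leukocyte list miR-223 and miR-146b each enter with an assay on both cards, so its median and counts weigh them more than the others. Both assays of each were positive, at 0.94 and 0.89 for miR-223 and 0.75 and 0.83 for miR-146b. Its only member with an unadjusted p under 0.05, miR-150, was lower (-1.09 ± 0.27, limma adjusted p = 0.333). The miR-150 groups did not overlap, as in 16.3% of the card with hyperoxia lower. The mean level of the leukocyte list ran from 3.14 to 3.61 in room air and from 3.24 to 3.94 in hyperoxia, and that of the epithelial list from 2.04 to 2.29 and from 1.62 to 2.32. Blood was read by 3 erythroid assays with a median of 0.24, 2 positive (miR-451 at 0.71 ± 1.20 and miR-486 at 0.24 ± 0.79) and 1 negative. The negative one was miR-144, on the second card with 2 samples in each group, at -1.29 ± 0.32 (limma unadjusted p = 0.019, adjusted p = 0.446). Of the erythroid assays, the 2 on the first card had a mean level from -0.08 to 2.32 in room air and from 0.37 to 3.11 in hyperoxia. Striated muscle had a median of -0.42 over 8 assays, 7 of them negative. Among these miR-499 had a wide error (-0.73 ± 6.94), and miR-1 entered with a mouse and a rat assay. The positive one was miR-206, on the second card with 2 samples in each group, at 1.31 ± 0.61. The epithelial list likewise counts miR-200b and miR-200c on both cards, and the smooth muscle and mesenchymal list miR-143 and miR-214. Over these 5 lists limma made 0 calls over all assays, and 5 of 46 assays (10.9%) had an unadjusted p under 0.05, beside 9.07% of all.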

How the data were processed

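RNA was copied with Megaplex primer sets A and B and pre-amplified over 12 cycles, per the labels' protocols. The authors deposited 1 table of Ct values per well, with group means, differences from a reference and a fold (ratio) of hyperoxia over room air; a Ct of 40 stands for no amplification, as the values show. The instrument, software and Ct threshold are not given in the sources used here. The wells were read here as 2 cards.

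The analysis used R 4.3.3 with limma 3.58.1. Values from a Ct of 35 upward were set missing, and log2 relative abundance is the mean Ct of the card's miRNAs detected in all samples used minus the Ct. Assays detected in at least 2 samples per group were tested with lmFit and eBayes (two-sided, 1.62 prior degrees of freedom) and Benjamini-Hochberg adjustment over all of them. Control RNAs and a plant assay stayed out. Second-card values shared by 2 samples were left out of both. Strand gaps were fitted likewise over first-card pairs. Single values had an exact two-sided permutation test. Scripts were tested on simulated data.

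Named assays are both strands, the 3 most alike to each, their neighbours in the room air order, tested members of the endothelial list, the 2 strand pairs with the largest and the 2 with the smallest change, and the control RNAs. Other lists were epithelial, smooth muscle and mesenchymal, leukocyte, erythroid and striated muscle miRNAs. The members and lists were chosen with earlier results of these data known. Sequences are from RefSeq. Alternatives covered the reference, the Ct ceiling, the detection filter, the replicates, the block, the cards, a plate row and the variance model.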

Additional observations from a re-analysis of the deposited data

How the results depend on the processing

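With 3 samples a group, the interval of miR-126-3p holds both 0 and a change of more than its own estimate. Over 26 alternatives each, miR-126-3p was negative in 26, with limma adjusted p from 0.118 to 0.901, and miR-126-5p in 24, with adjusted p from 0.144 to 0.982; 0 of these passed. The 5p value was 0.11 with quantile normalization and 0.16 against U6 row B. References by single control RNAs and by U6 row B were chosen after seeing the data. Leaving out 1 sample gave -0.96 to -0.35 for 3p and -0.31 to -0.02 for 5p. The strand gap was negative in all 10 of its alternatives, from -0.79 to -0.29 with 1 sample left out. The places in the order of Ct were the same with each sample left out, and the likeness of the strands ran from 0.33 to 0.44.

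The count of calls over all assays was 1 with a Ct ceiling of 32, with no ceiling, with the first card alone, without plate row G and with a trended robust variance, 2 with detection in at least 1 sample of each group, and 0 to 1 with 1 sample left out. The endothelial median was -0.68 against the 5 control RNAs, -0.73 without normalization, -0.34 against U6 row A and -0.35 with no ceiling, and -0.20 to -0.003 with 1 sample left out.

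Same-numbered samples did not deviate together (correlations of -0.34, -0.23 and -0.18 across 282 assays), and no sample correlated best with its own number. The labels name no litter, so whether same-numbered samples share more than a number cannot be told. With the replicate number as a block, miR-126-3p was at -0.61 ± 0.40 and miR-126-5p at -0.14 ± 0.31 (limma adjusted p = 0.664 and 0.866), the gap at -0.47 ± 0.37 (adjusted p = 0.677), the endothelial median at -0.12, and 0 assays were called.

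Other named values changed sign. Against the control RNAs, miR-23b was at -0.41, miR-24 at -0.32, miR-27a at -0.32 and miR-296-5p at -0.21. Without normalization these were at -0.60, -0.51, -0.51 and -0.41, and miR-222 at -0.037. Against U6 row A, miR-23b was at -0.17, miR-24 at -0.081 and miR-27a at -0.079. With no ceiling these 3 were at -0.21, -0.13 and -0.12, and miR-296-5p at -0.017. With quantile normalization miR-24 was at -0.28 and miR-141 at 0.084. The second-card miR-10b was at 0.063 with the median as reference. Without row G, miR-345-5p was at 0.034, miR-128a at 0.025 and miR-141 at 0.040. With 1 sample left out, miR-10a ran from -0.25 to -0.042, miR-24 from 0.10 to 0.41, miR-222 from 0.43 to 0.89, miR-140 from -0.73 to -0.34 and miR-582-3p from -1.13 to -0.39, with no change of sign, whereas miR-23b ran from -0.056 to 0.29, miR-27a from -0.062 to 0.40, miR-141 from -0.28 to 0.11, miR-345-5p from -0.13 to 0.091 and miR-128a from -0.14 to 0.11. The gap ran from -0.11 to 0.14 for miR-345 and from -0.15 to 0.035 for miR-434. None of these was called, and the cause of these changes was not tested.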
